A study of Mus musculus with 3 samples.

Results

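The 32 genes described here encode nuclear subunits of the mitochondrial respiratory chain and its carrier cytochrome c. They were taken as a fixed list of gene names, matched through the RefSeq accession that each array probe carries, and each gene was represented by its brightest probe. All 32 were found, among 20825 named genes on the array, and 15 belong to complex I, 4 to complex II, 5 to complex III and 6 to complex IV. Cycs (cytochrome c) and Ndufa4, first described in complex I and later assigned to complex IV, were held apart from the 4 complexes.

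The samples were tail-tip fibroblasts collected on day 8 after introduction of 4 reprogramming factors, Oct4, Sox2, Klf4 and c-Myc, which all 3 groups received. The groups were old p16-/- (cells of mice aged 22 months that lack p16), old WT (cells of wild-type mice aged 22 months) and young WT (cells of wild-type mice aged 2 months). Total RNA of each group was hybridised to 1 one-colour array. According to the design text, 2 experiments were run on different donor mice; 1 array per group was analysed here, and the number of donors behind an array and the strain are not given in the sources used here.

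Complex I takes electrons from NADH and complex II takes them from succinate, and both hand them to ubiquinone. Complex III passes them on to cytochrome c, and complex IV uses them to reduce oxygen. Complexes I, III and IV pump protons across the inner membrane, and ATP synthase (complex V) uses the gradient. Fibroblasts and other somatic cells rely on this pathway more than pluripotent cells do, and reprogramming is known for a shift in the balance between respiration and glycolysis.

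Between 57.4% and 61.6% of the 43020 non-control spots on each array were well above background, and no spot was saturated. The fibroblast markers Col1a1, Col1a2, Col3a1, Pdgfra, Thy1, Vim, Dcn and Lum were well above background on all 3 arrays, and they differed between arrays in both directions. Thy1 had a signal of 3287 on old p16-/-, against 52045 on old WT and 69467 on young WT. Pdgfra had 2682 on old p16-/-, against 884 on old WT and 651 on young WT, and Dcn had 38409, against 25431 and 26079. Of 6 genes of pluripotent cells, Pou5f1, Zfp42 and Esrrb were well above background on none of the arrays, Sox2 on old p16-/- alone (signal 73), and Nanog and Dppa5a on all 3. Nanog had 196 on old p16-/-, 217 on old WT and 264 on young WT, and Dppa5a had 93, 224 and 155 in that order. The signal of Cdkn2a, which encodes p16 and Arf, was 28065 on old p16-/-, 65464 on old WT and 62705 on young WT; its probes are not known to lie in the deleted part and check no genotype. The Y-linked genes Ddx3y and Eif2s3y were well above background on young WT and on neither old array, and Xist on both old arrays and not on young WT. Sex-linked expression and donor age therefore cannot be told apart in either comparison with young WT.

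All 32 members were well above background on all 3 arrays, with signals between 13590 (Ndufa9 on old WT) and 340922 (Cox6a1 on young WT). Signals are background-subtracted brightness in scanner units and compare arrays within 1 gene, not genes with each other. Ratios are log2 ratios after each array was divided by its 75th percentile of signal, so a ratio of 0 means equal signal relative to that percentile. The software's own error of a member's signal was 10%, which corresponds to 0.19 log2 units for a ratio. Replicate spots of 1 probe spread less and gave 0.079 log2 units for a ratio. Uqcrc2, the one member spotted 10 times, had 36545 ± 551 on old p16-/-, 32024 ± 466 on old WT and 35297 ± 445 on young WT (SD over 10 spots of 1 array). These errors describe spots and not donors, and with 1 array per group no difference has a replicate check and no test was run.

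**Figure D1:**
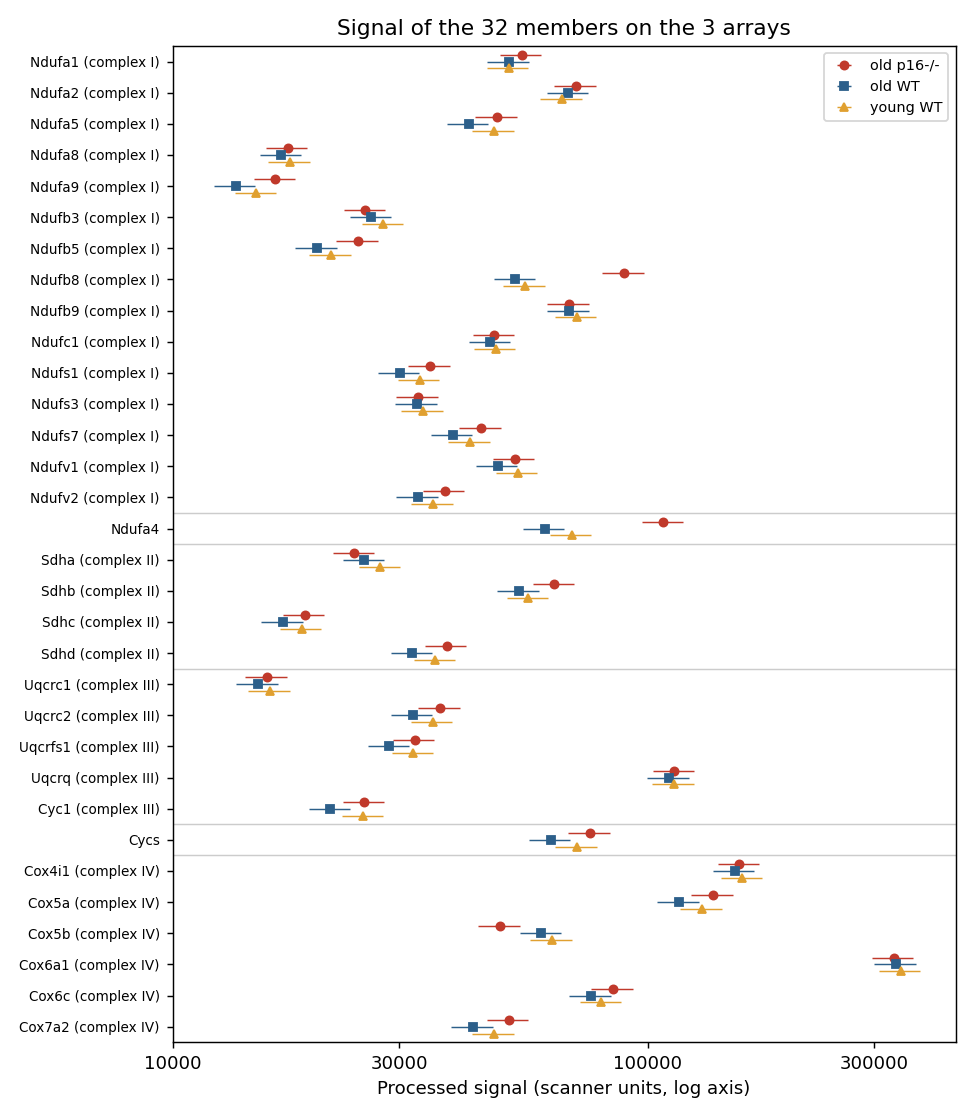
Processed signal of each member (rows, grouped by complex) on the old p16-/-, old WT and young WT arrays, on a log axis in scanner units; bars are the software's error of 10%. Signals of Ndufb8 and Ndufa4 lie clear of both wild-type arrays on old p16-/-, Cox5b lies lowest on old p16-/-, and the other members lie close together across the arrays.

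Old p16-/- against old WT compares genotypes in cells of aged mice. These arrays come from different mice and also differed in macrophage marker and cell cycle signals. The absence of p16 therefore cannot be told apart from donor, culture or cell mix here. Respiratory chain genes lay slightly higher on old p16-/-: the median log2 ratio of the 32 members was 0.17, with an interquartile range of 0.04 to 0.25. Many single ratios given below are under the 0.19 that the software's error gives for a ratio. Ratios were above 0 for 28 members and below 0 for 4, against 53.4% above and 45.2% below 0 among the 14695 genes counted, whose median was 0.03. Of 3122 bright genes, whose signal reached 10000 on either of the arrays compared, 63.2% were above 0 and 36.8% below, with a median of 0.08. The threshold for a gene counted as apart was 0.32 log2 units. Ndufa4 and Ndufb8 were the members higher by at least that (2 of 32, against 20.7% of all genes), no member was lower by at least that (20.4% of all genes) and none was 2-fold apart in either direction (5.97% of all genes higher and 6.51% lower). The members' median depended on the scaling: it was 0.07 after cyclic loess, which removes a trend of the ratio with signal, with 19 of 32 members above 0 (47.7% of all genes), and 0.11 with 23 above 0 after quantile normalization (50.6% of all genes).

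Ndufa4 had the largest difference of the 32, with signals of 107912 on old p16-/-, 60786 on old WT and 69197 on young WT. Its log2 ratio was 0.84 over old WT, which is 1.78-fold. Ndufb8, an accessory subunit of the proton-pumping membrane arm of complex I, had 89287 on old p16-/-, 52671 on old WT and 55259 on young WT, a log2 ratio of 0.77 over old WT (1.70-fold). For both genes the old p16-/- array stood alone and the wild-type arrays lay close to each other. Each rests on 1 probe spotted once, and both ratios stayed past 0.32 log2 units under every alternative tried, from 0.71 to 0.87 for Ndufa4 and from 0.65 to 0.81 for Ndufb8.

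Cox5b, a zinc-binding nuclear subunit of complex IV, was the member that went furthest the other way. Its signals were 48922 on old p16-/-, 59737 on old WT and 62977 on young WT, with a log2 ratio of -0.28 over old WT. It too rests on 1 probe spotted once. Under 3 of the scalings its ratio passed 0.32 log2 units, at -0.33 with the percentile over probes above background on all arrays, -0.33 with quantile normalization and -0.40 with cyclic loess.

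The promoters of Ndufa4, Ndufb8 and Cox5b are shown because these 3 members lay furthest from the rest, and that of Sdhd because it was the member with a match to 3 of 4 motifs searched. Each runs from 250 bases before to 50 bases after the annotated start, 5′ to 3′ along the gene, from RefSeq on GRCm38.p6. Capitals mark a motif match on either strand, and a sequence with no capitals held none of the 4.
Ndufa4, chr6:11907401-11907700, minus strand: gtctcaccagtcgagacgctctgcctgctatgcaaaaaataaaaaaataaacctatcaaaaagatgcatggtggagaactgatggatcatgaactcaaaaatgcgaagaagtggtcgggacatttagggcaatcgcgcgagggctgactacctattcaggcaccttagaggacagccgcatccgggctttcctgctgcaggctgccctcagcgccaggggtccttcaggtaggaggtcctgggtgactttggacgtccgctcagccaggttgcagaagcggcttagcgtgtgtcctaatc
Ndufb8, chr19:44555393-44555692, minus strand: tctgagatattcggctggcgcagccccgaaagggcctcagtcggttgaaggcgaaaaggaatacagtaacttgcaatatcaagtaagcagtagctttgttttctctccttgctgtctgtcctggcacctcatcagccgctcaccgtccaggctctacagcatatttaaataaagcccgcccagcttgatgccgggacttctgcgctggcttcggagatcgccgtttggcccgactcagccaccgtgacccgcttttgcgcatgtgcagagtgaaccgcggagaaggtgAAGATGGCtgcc
Cox5b, chr1:36691237-36691536, plus strand: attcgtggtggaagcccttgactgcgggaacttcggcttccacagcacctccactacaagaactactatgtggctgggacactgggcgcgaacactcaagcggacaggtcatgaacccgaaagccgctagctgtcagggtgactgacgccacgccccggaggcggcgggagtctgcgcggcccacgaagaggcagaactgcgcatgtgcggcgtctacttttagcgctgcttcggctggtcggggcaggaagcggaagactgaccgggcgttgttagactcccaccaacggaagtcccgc
Sdhd, chr9:50603800-50604099, minus strand: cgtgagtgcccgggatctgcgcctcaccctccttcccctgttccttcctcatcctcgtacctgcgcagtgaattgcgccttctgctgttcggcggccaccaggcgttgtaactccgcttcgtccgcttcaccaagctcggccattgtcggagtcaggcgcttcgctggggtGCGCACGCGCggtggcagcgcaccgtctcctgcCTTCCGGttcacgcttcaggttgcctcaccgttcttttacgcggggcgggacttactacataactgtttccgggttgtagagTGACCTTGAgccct

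The motifs were those of factors known to act on respiratory genes: NRF1 (GCGCA, any base, GCGC), the ETS factor GABPA (CCGGAAG), YY1 (AAGATGGC) and the oestrogen-related receptors (TCAAGGTCA). Promoters were at hand for 23 of the 32 members; Ndufa2, Ndufb9, Ndufs1, Sdhc, Uqcrc2, Uqcrq, Cyc1, Cox4i1 and Cox6c had no entry. The NRF1 letters were in 6 of 23 member promoters (26.1%, against 5.19% of 27025 genes with a promoter), the GABPA letters in 4 (17.4%, against 9.93%), the YY1 letters in 4 (17.4%, against 3.19%) and the receptor letters in 1 (4.35%, against 0.466%). No matches in a member promoter overlapped each other. In Sdhd the NRF1 match began 79 bases and the GABPA match 46 bases before the start, and in Ndufb8 the YY1 match began at base 38 from the start. Log2 ratios of old p16-/- over old WT had a median of 0.06 for the 6 members with NRF1 letters (range -0.06 to 0.25). The median was 0.20 for the 17 without them (-0.28 to 0.84). Medians with and without the letters were 0.13 and 0.19 for GABPA and, in the other direction, 0.24 and 0.19 for YY1. These differences were not tested. A match is a run of letters and not a shown binding site.

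Within complex I, the median log2 ratio of old p16-/- over old WT was 0.13 over 15 members, and 14 lay above 0. At the tip that takes in electrons, ratios lay between 0.06 and 0.22 for Ndufv1, Ndufv2, Ndufs1 and Ndufa2. Ndufv1, which holds the flavin that oxidises NADH, had 52545 on old p16-/-, 48378 on old WT and 53307 on young WT (0.13 over old WT). Its partner Ndufv2, an iron-sulfur protein, had 37419, 32870 and 35363 on old p16-/-, old WT and young WT (0.19 over old WT). Ndufs1, the largest iron-sulfur subunit, had 34835 on old p16-/-, 30049 on old WT and 33142 on young WT (0.22 over old WT), and Ndufa2, an accessory subunit beside it, 70741, 68150 and 66087 in the same order (0.06 over old WT). Of these 4, Ndufa2 was the gene with the highest old WT over young WT ratio of all 32 members, at 0.10.

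The subunits near the ubiquinone site gave a mixed picture. Ndufs7, which carries the last iron-sulfur cluster before ubiquinone, had 44578 on old p16-/-, 38882 on old WT and 42294 on young WT (0.20 over old WT). Ndufs3, a core subunit next to it, barely differed, with 32847 on old p16-/-, 32744 on old WT and 33652 on young WT (0.01 over old WT). Ndufa9, an accessory subunit at the joint of the 2 arms, had 16463 on old p16-/-, 13590 on old WT and 15006 on young WT (0.28 over old WT), and Ndufa5 had 48177, 41986 and 47553 in that order (0.21 over old WT). A second probe of Ndufa5 gave 0.16 for the same ratio.

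In the membrane arm, Ndufb5 stood next to Ndufb8, with 24581 on old p16-/-, 20133 on old WT and 21552 on young WT (0.30 over old WT). A second, dimmer probe of Ndufb5 gave 0.53, and with both probes averaged the gene passed the threshold at 0.41. The X-linked Ndufa1 had 54287 on old p16-/-, 51133 on old WT and 51022 on young WT. Both old arrays differed from young WT in Xist and Y-linked signals. Log2 ratios of Ndufa1 in these comparisons were 0.05 (old WT over young WT) and 0.15 (old p16-/- over young WT). Whether sex had a part in either ratio was not tested. The remaining accessory subunits of complex I lay close to 0 between the old arrays. Ndufa8 had 17472, 16951 and 17684, Ndufb9 had 68305, 68328 and 70945 and Ndufc1 had 47605, 46688 and 47895 on old p16-/-, old WT and young WT. Ndufb3, at 25478 on old p16-/-, 26213 on old WT and 27783 on young WT, was the complex I member below 0, at -0.03 over old WT.

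Complex II, which is also an enzyme of the tricarboxylic acid cycle, had a median of 0.20 over its 4 genes for old p16-/- over old WT, and its catalytic subunit differed in direction from the rest. Sdha, which holds the flavin and oxidises succinate, had 24149 on old p16-/-, 25329 on old WT and 27398 on young WT (-0.06 over old WT). The iron-sulfur subunit Sdhb had 63626 on old p16-/-, 53620 on old WT and 56102 on young WT (0.25 over old WT, and 0.37 by a second probe). The membrane anchors Sdhc and Sdhd had 18980 and 37769 on old p16-/-, 17089 and 31978 on old WT, and 18691 and 35772 on young WT, with ratios of 0.16 and 0.25 over old WT. A second probe of Sdhc gave 0.06, and the 2 probes differed in sign for old WT over young WT, at -0.08 and 0.05.

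All 5 complex III genes lay above 0 between the old arrays, with a median of 0.19. Cyc1, cytochrome c1, had 25334 on old p16-/-, 21478 on old WT and 25210 on young WT (0.25 over old WT). Uqcrc2 was at 0.20, with the spot values given above, and the Rieske iron-sulfur protein Uqcrfs1 at 0.19 (32356, 28591 and 32156 on old p16-/-, old WT and young WT). The core subunit Uqcrc1 had 15821 on old p16-/-, 15129 on old WT and 16032 on young WT (0.07 over old WT). The small subunit Uqcrq, at 113867, 110924 and 113614 in that order, had 0.05 (0.04 by a second probe). After cyclic loess Uqcrc1 and Uqcrq were below 0, at -0.02 and -0.09. Cycs, which carries electrons from complex III to complex IV, had 75625 on old p16-/-, 62478 on old WT and 71054 on young WT. Its ratio over old WT was 0.28, and a second probe well above background gave 0.33.

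Complex IV had the lowest median of the 4 complexes, 0.10 over 6 genes, and the widest downward range. Beside Cox5b, Cox6a1 was also just under 0 with 329790 on old p16-/-, 333524 on old WT and 340922 on young WT (-0.01 over old WT). Cox4i1, the regulatory subunit that starts assembly around the catalytic core, had 156024 on old p16-/-, 152543 on old WT and 158297 on young WT (0.04 over old WT). Cox5a, also added early, had 137265 on old p16-/-, 116434 on old WT and 130143 on young WT (0.25 over old WT). Of the small outer subunits, Cox6c had 84566, 76077 and 79912 and Cox7a2 had 51007, 42893 and 47499 on old p16-/-, old WT and young WT, with ratios of 0.16 and 0.26 over old WT.

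The complexes did not separate from each other. Their medians for old p16-/- over old WT lay between 0.10 and 0.20, while the ranges within them were wider, from -0.03 to 0.77 in complex I, from -0.06 to 0.25 in complex II, from 0.05 to 0.25 in complex III and from -0.28 to 0.26 in complex IV. Counting Ndufa4 with complex I gave a median of 0.16, and counting it with complex IV also gave 0.16. The size of the medians depended on the scaling: after cyclic loess they were 0.01 for complex I, 0.10 for complex II, 0.08 for complex III and -0.03 for complex IV.

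**Figure D2:**
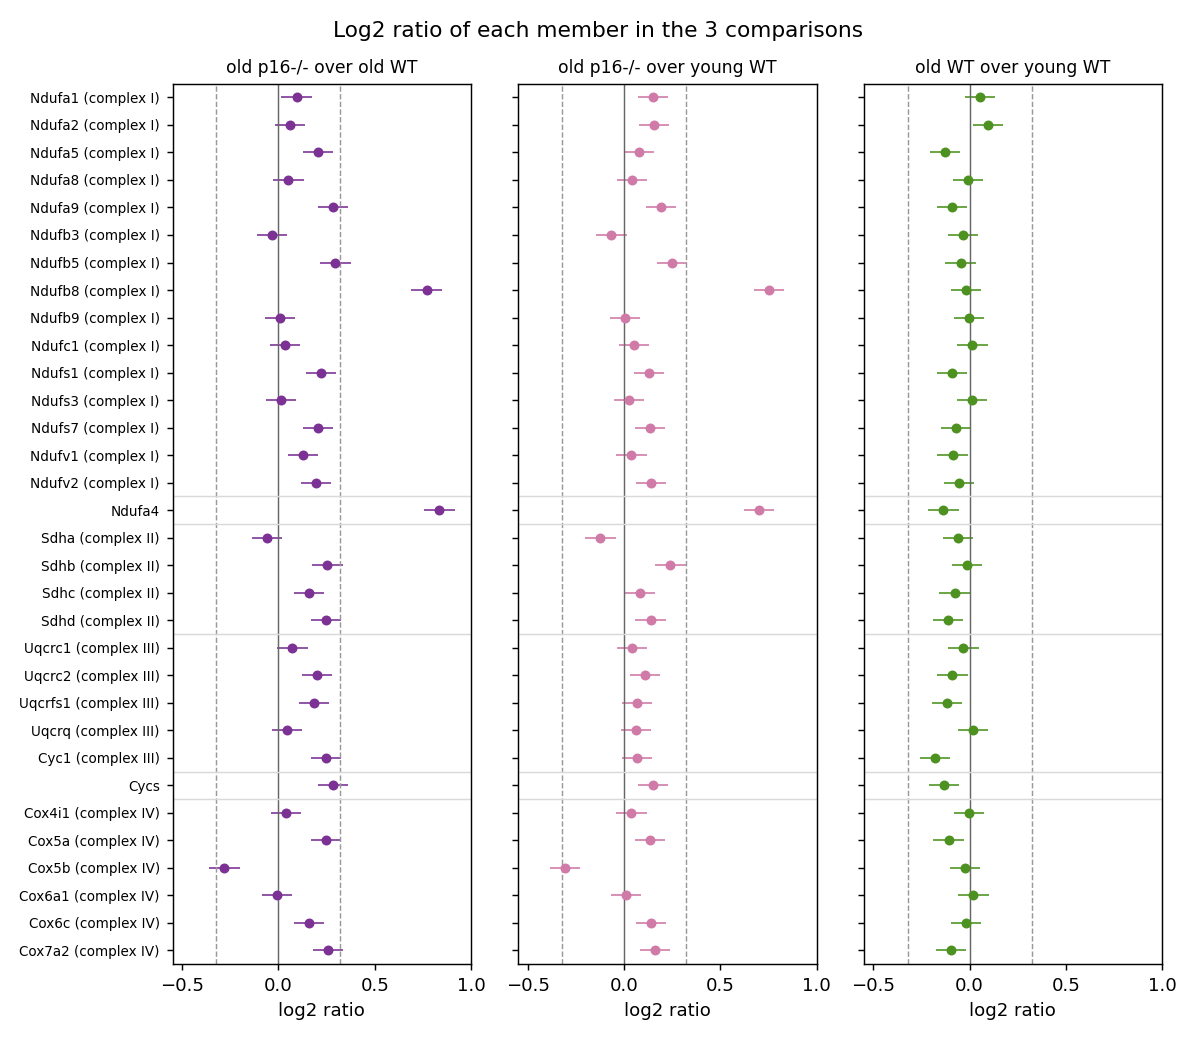
Log2 ratio of each member (rows, grouped by complex) for old p16-/- over old WT, old p16-/- over young WT and old WT over young WT; bars are 0.079 log2 units, from replicate spots, and dashed lines mark 0.32 log2 units on either side of 0. Ndufb8 and Ndufa4 lie past the upper line in both comparisons of old p16-/-, and every member lies inside the lines for old WT over young WT.

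Old WT against young WT compares donor ages. These arrays also differed in Xist and Y-linked signals, so age and sex-linked expression cannot be told apart here. No respiratory chain member passed 0.32 log2 units in either direction (12.4% of 14550 genes were higher and 9.73% lower), none was 2-fold apart (2.89% of all genes higher and 3.22% lower), and the median log2 ratio was -0.05, with an interquartile range of -0.09 to -0.01. Ratios were below 0 for 26 members and above 0 for 6, against 51.9% of all genes below and 45.4% above 0. Of the 3045 bright genes, 63.6% were below and 36.4% above 0. The median over all genes was -0.01 and over the bright genes -0.04. After cyclic loess the members' median was 0.00, with 16 of 32 above 0.

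The electron carriers Cyc1 (-0.18) and Cycs (-0.13), with Ndufa4 (-0.14) and Ndufa5 (-0.13), lay lowest on old WT relative to young WT. Each is under the 0.19 that the software's error gives for a ratio. The median was -0.03 for complex I, -0.07 for complex II, -0.09 for complex III and -0.02 for complex IV, with a range of -0.18 to 0.10 over all members.

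Old p16-/- set against young WT gave a median log2 ratio of 0.10 over the 32 members (interquartile range 0.04 to 0.15), and 0.03 over 14283 genes. Ratios were above 0 for 29 members and below 0 for 3, against 55% above and 44.7% below among all genes and 59.3% above and 40.7% below among bright ones. Ndufb8 at 0.75 and Ndufa4 at 0.70 passed 0.32 log2 units upward and no member did downward (19.3% of all genes in either direction), none was 2-fold apart (6.36% of all genes higher and 6.95% lower), and Cox5b at -0.30, Sdha at -0.12 and Ndufb3 at -0.07 were below 0. This comparison shares the old p16-/- array with the comparison of the old arrays and the young WT array with that of the wild-type arrays, so the 3 sets of ratios are not independent. Medians were 0.13, 0.11, 0.07 and 0.09 for complexes I, II, III and IV.

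The other 48 subunits of complexes I, III, IV and V on the array had a median of 0.12 for old p16-/- over old WT and -0.02 for old WT over young WT. For old p16-/- over old WT the 21 other complex I subunits had a median of 0.06, with 15 above and 6 below 0. That is lower than the 0.13 of the 15 complex I members. The median was 0.17 for the other subunits of complex III, 0.12 for those of complex IV and 0.16 for ATP synthase. Of the 48, 4 were higher and 1 lower between the old arrays by at least 0.32 log2 units (20.7% and 20.4% of all genes). Of the 4, 2 belong to ATP synthase, Atp5o in the stalk and the catalytic-head subunit Atp5a1, both at 0.42. The others were Ndufab1, the mitochondrial acyl carrier protein, at 0.43 and the complex I accessory subunit Ndufa6 at 0.39. Ndufv3, which sits beside the flavin subunit of complex I, was lower, with 24222 on old p16-/-, 53514 on old WT and 52968 on young WT. Its log2 ratio over old WT was -1.14, whereas a second probe, at signals of 886, 886 and 814 in that order, gave 0.01.

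Assembly factors, which build the complexes, had medians near that of all genes. The 13 assembly factors of complex I had a median of -0.02 for old p16-/- over old WT, and 2 were at least 2-fold lower (6.51% of all genes). Acad9 had 3875 on old p16-/-, 10275 on old WT and 12013 on young WT (-1.40 over old WT), and Ndufaf1 had 2888, 6023 and 6276 in that order (-1.05 over old WT). Each is a factor needed for the membrane arm and rests on 1 probe. The list as a whole did not share this direction: 6 of the 13 lay above 0 and 7 below (53.4% and 45.2% of all genes). Ecsit was highest at 0.25, and Tmem126b was at -0.25. The 24 counted assembly factors of complexes II to IV had a median of 0.05, with 14 above and 10 below 0 (53.4% and 45.2% of all genes). Cox18, which inserts a catalytic subunit of complex IV, was at 0.39 and alone passed the threshold (20.7% of all genes higher and 20.4% lower).

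Enzymes of the tricarboxylic acid cycle had a median of 0.17 over 13 genes for old p16-/- over old WT and -0.08 for old WT over young WT. Fumarase, Fh1, had 33389 on old p16-/-, 22852 on old WT and 25462 on young WT (0.55 over old WT). Idh3a, a subunit of isocitrate dehydrogenase, had 19281, 13905 and 16541 in that order (0.48 over old WT). These 2 of the 13 genes passed the threshold upward, against 20.7% of all genes. None passed it downward (20.4% of all genes). The 25 mitochondrial ribosomal proteins had medians of 0.16 and -0.07 in the same comparisons. Between the old arrays 4 of the 25 passed the threshold upward (20.7% of all genes), with Mrpl3 at 0.49, Mrpl12 at 0.39 and Mrps30 at 0.37 among them. Lower were 2 (20.4% of all genes), Mrps12 at -1.17 and Mrps10 at -0.46.

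Among 14 regulators of respiratory genes and mitochondrial DNA, 13 had a ratio above 0 for old p16-/- over old WT (53.4% of all genes), with a median of 0.20, and 4 passed the threshold upward (20.7% of all genes). Of these 4, 2 are bounds on dim genes. Tfam, which packages and transcribes mitochondrial DNA, had 4876 on old p16-/-, 3863 on old WT and 4551 on young WT. Its log2 ratio over old WT was 0.34, and its other probes gave 0.41 and 0.28. The coactivator Pprc1 had 854, 542 and 650 on old p16-/-, old WT and young WT (0.66 over old WT). The coactivators Ppargc1b and Ppargc1a were dim, above background on old p16-/- alone at signals of 99 and 53, and at least 1.31 and 0.59 log2 units above old WT.

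The transcription factors whose motifs were searched differed by less. For old p16-/- over old WT, Nrf1 was at 0.28, Yy1 at 0.21, Gabpa at 0.18, Gabpb1 at 0.17 and Esrra at 0.00. Other probes of Gabpa and Nrf1 gave -0.11 for Gabpa and 0.16 and 0.09 for Nrf1. Tfb1m and Tfb2m, mitochondrial transcription factors, were at 0.24 and 0.18, the polymerase genes Polg and Polrmt at 0.13 and 0.10 and the helicase gene Twnk at 0.06.

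Tissue-restricted subunit isoforms ranged from well above background on every array to not above background on any. Ndufa4l2, the Ndufa4 paralogue known for induction in hypoxia, had 1302 on old p16-/-, 1307 on old WT and 1207 on young WT (0.00 for old p16-/- over old WT). Cox4i2 had 299, 280 and 286, Cox6b2 had 2057, 1990 and 2072 and Cox7a1 had 823, 696 and 830 on old p16-/-, old WT and young WT, all within 0.25 log2 units between the old arrays. Cox6a2 and Cox8c were well above background on old WT alone, at signals of 58 and 133, and Cox7b2, Cox8b and Cyct were not on any array.

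**Figure D3:**
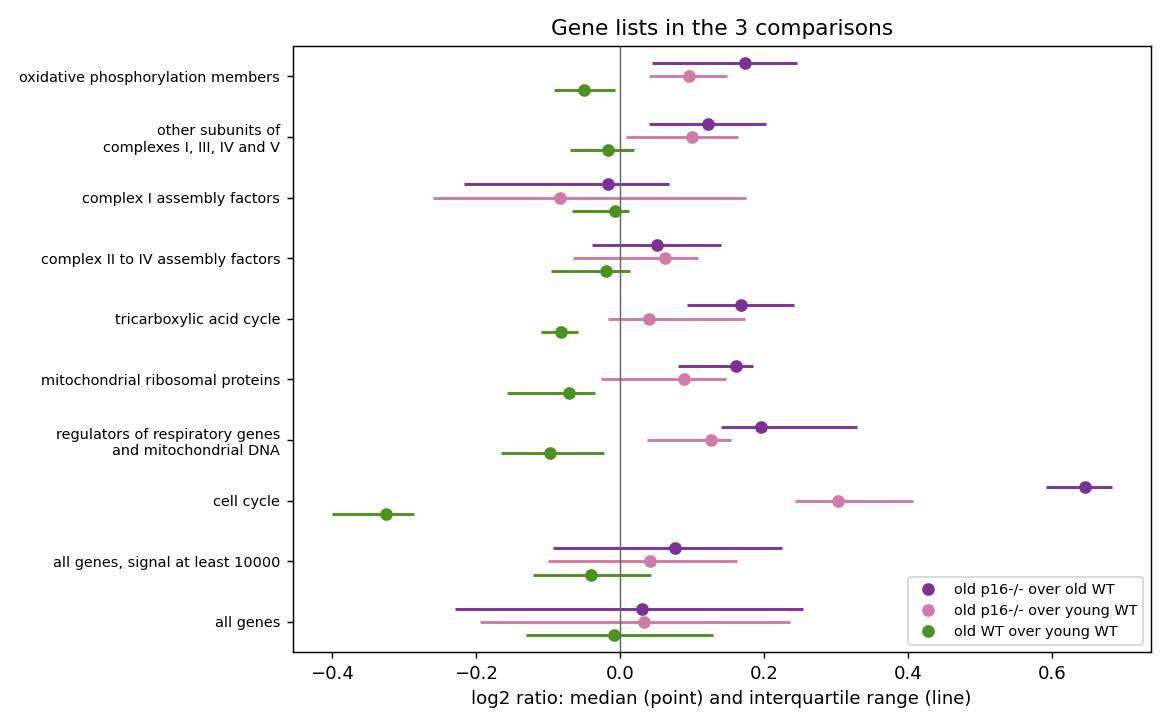
Median log2 ratio (points) and interquartile range (lines) of the members, of other mitochondrial gene lists, of cell cycle genes and of all genes, for old p16-/- over old WT, old p16-/- over young WT and old WT over young WT. The members lie near the other subunits, the tricarboxylic acid cycle and the mitochondrial ribosomal proteins in each comparison, and the cell cycle list lies further from 0.

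Several other measures moved beside these small shifts, and their part in them was not tested. All 16 cell cycle genes lay above 0 for old p16-/- over old WT (53.4% of all genes), with a median of 0.65 and 15 past the threshold (20.7% of all genes). All 16 lay below 0 for old WT over young WT (51.9% of all genes), with a median of -0.33 and 10 past it (9.73% of all genes). Of 9 macrophage markers on the array, 3 were well above background on old p16-/-, 8 on old WT and 8 on young WT, with summed signals of 1740, 4636 and 16554; Adgre1, Lyz2, Tyrobp, C1qa, C1qb and C1qc were not above background on old p16-/-, whereas Ptprc was above it on old p16-/- alone, at 90. Keratinocyte markers summed to 10860, 10020 and 13039 on old p16-/-, old WT and young WT, endothelial markers to 6513, 6498 and 6500, skeletal muscle markers to 1714, 7267 and 8041 and adipocyte markers to 5066, 3219 and 2288. Sums over different probes follow their brightest genes, and single markers moved apart within them. Kdr carried most of the endothelial sum (6167, 6041 and 5830 on old p16-/-, old WT and young WT), beside Tek at 242, 365 and 577 in that order. Acta1 carried most of the muscle sum (1569 on old p16-/-, 7105 on old WT and 7932 on young WT). Among the adipocyte markers Lpl had 2807 on old p16-/-, 406 on old WT and 757 on young WT, and Fabp4 had 2259, 2813 and 1531 in that order. Krt1, Cdh5, Emcn, Myog, Myod1, Ckm, Adipoq, Plin1 and Ucp1 failed to rise well above background on all 3 arrays. In RNA from whole cultures, fewer cells of a type and less RNA per cell cannot be told apart.

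**Figure D4:**
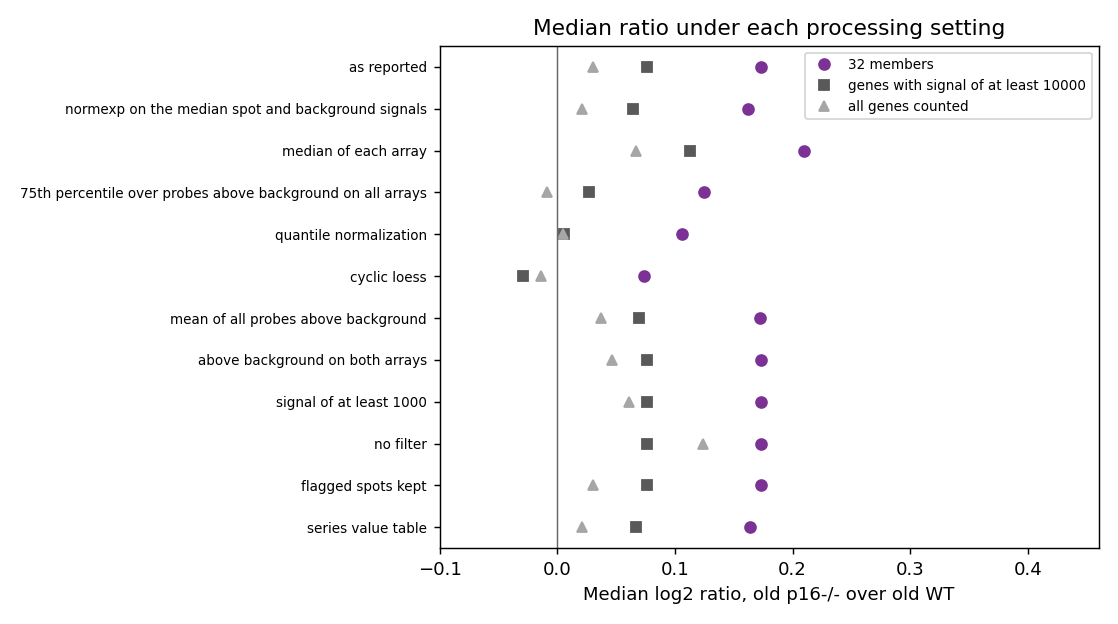
Median log2 ratio of old p16-/- over old WT for the 32 members, for genes with a signal of 10000 or more and for all genes counted, under the reported processing and 11 alternatives. The members' median lies between 0.07 and 0.21 and above both other medians under each setting.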

How the data were processed

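The deposited intensities come from Agilent Feature Extraction 11.5.1.1, per the file headers, with 1 dye, Cy3. Its processed signal has background and spatial trend removed within each array, without normalization across arrays. The deposited flags (other values, 0 or 1 per spot) mark outliers and spots well above background. Intensities in the deposited value table equal it (39030 of 39030 single-spot probes on each array within a relative tolerance of 0.0001). The 3 arrays shared 1 slide and 1 scan.

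Control spots (1377) and outlier-marked spots (267 on old p16-/-, 246 on old WT and 246 on young WT) were left out. Log2 signals were averaged per probe and each array's 75th percentile (2243 on old p16-/-, 2255 on old WT, 2338 on young WT) was subtracted. RefSeq accessions named 27508 of 39429 probes; of 243 list entries, 241 were on the array (not Ndufb1 and Cd68). A gene was counted where either array compared had it above background; with 1 array below, the ratio is a bound, taken against that array's lowest signal above background or the probe's own signal where this is larger. Thresholds were 0.32 log2 units and 2-fold, without tests. The ratio step was tested on simulated data. Python 3.11.15 and limma 3.58.1 were used.

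Members and lists were chosen with earlier results of these data known. All members are named; of the other lists, names come from the 3 highest and 3 lowest ratios per comparison, with all regulators and isoforms above background, Cdkn2a and the sex-linked genes. Isoforms never above background and single cell type markers were named as exceptions, after their values were seen. Alternatives covered background correction, scaling, probe choice, filters, flags and source. The files hold no mean spot signal, so normexp was run on the median spot signal with an offset of 50; this and the limit of 10000 were chosen after seeing the data.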

Additional observations from a re-analysis of the deposited data

How the results depend on the processing

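A value was taken as kept if it moved by less than 0.079 log2 units, the spread of a ratio from replicate spots, and a count if it moved by at most 1.5 times. A change of sign was counted as a reversal only where the reported value itself exceeded 0.079. Of 237 summary values under the alternatives, 224 were kept, 11 moved and 2 reversed. By sign alone, 6 summary values changed. The tolerance exceeds many of the reported values, so a kept value can still have lost its shift. Kept by this rule was the members' median for old WT over young WT, -0.050 as reported and 0.00065 after cyclic loess. The same holds for old p16-/- over young WT, at 0.096 as reported and 0.045 after cyclic loess. Of 1056 values of single members, 1011 were kept, 44 moved and 1 reversed, Ndufa1 at -0.022 for old p16-/- over old WT after cyclic loess. By sign alone, 75 values of single members changed, of which 61 moved by less than 0.079 and 13 moved further from a reported value nearer 0. These 13 came from cyclic loess and quantile normalization, among them Cox4i1 at -0.097 and Ndufa2 at -0.060 for old p16-/- over old WT after cyclic loess. Part of the tally was fixed in advance. The changes of filter could not alter a member's ratio, because every member passed each of them. Keeping flagged spots left the members' medians as reported. Averaging probes could change only the 6 members with several probes. Such values count as kept, so the tally overstates how far the results hold.

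After cyclic loess, the medians for old p16-/- over old WT were 0.074 for all members, 0.012 for complex I, 0.10 for complex II, 0.081 for complex III and -0.031 for complex IV. After quantile normalization the complex IV median was -0.00045 for old p16-/- over old WT and 0.0079 for old p16-/- over young WT. Under cyclic loess, quantile normalization and the percentile over probes above background on all arrays, 1 member (Cox5b) rather than 0 was lower by at least 0.32 log2 units on old p16-/- than on old WT, and likewise than on young WT. The cause was not tested.

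No alternative put a member past 0.32 log2 units for old WT over young WT. Normexp on the mean spot signal was not run. No paired analysis was possible because each group has 1 array. All members were well above background on every array. Precision is limited by there being 1 array per group, by the choice of scaling and by the single probe of 26 members.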
